A study of Homo sapiens with 6 samples.

Results

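The unfolded protein response and the ATF4 stress response adjust protein folding in the endoplasmic reticulum (ER) and amino acid supply, and 41 of their genes are described here in HepG2 cells edited at miR-23a or miR-27a. The 41 members, out of 20026 genes in the deposited table, were chosen by symbol for their known roles. They are 3 stress sensors, 6 transcription factors, 10 ER chaperones, 3 protein disulfide isomerases, 4 genes of ER-associated degradation, 6 genes of feedback and growth arrest, 7 genes of amino acid supply and 2 secreted factors. Per the labels and the study's methods, the knockout (KO) groups carried Cas9 with paired guides flanking the mature miRNA sequence, and the control group, Scr, received the empty PX458 plasmid. Each of the 3 groups has 2 RNA-seq libraries. The edited cells were sorted and grown as colonies, and the labels do not say whether the 2 libraries of a group are 2 clones or 2 cultures, so the p-values measure only the spread between these libraries. The miRNAs themselves, edited or neighbouring, were not analysed here, so the groups rest on the sample titles. Other label fields give the genotype as WT and call the cells triple-negative, which fits neither the KO titles nor HepG2.

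ER stress is sensed by ATF6, by IRE1 (encoded by ERN1), which splices XBP1 mRNA, and by PERK (encoded by EIF2AK3), which phosphorylates eIF2alpha and so favours translation of ATF4. ATF6 and spliced XBP1 act through promoter elements of chaperone genes such as HSPA5, while ATF4, with partners such as DDIT3 and CEBPB, acts on amino acid genes such as ASNS. Gene-level RNA counts show neither XBP1 splicing nor ATF4 translation.

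The targeted miRNAs have different seeds, and their mature sequences (capitals mark the seed, positions 2 to 8; GRCh38.p14, chr19:13836595-13836615, minus strand for miR-23a-3p and chr19:13836447-13836467, minus strand for miR-27a-3p) are shown because member 3'-UTRs were searched for the complements. A 3'-UTR of 7 of 41 members (ATF6, HSP90B1, DNAJC3, PDIA6, SESN2, ASNS and MTHFD2) holds a miR-23a-3p seed match, against 19.3% of 15891 genes with an annotated 3'-UTR. A miR-27a-3p match lies in 4 of 41 members (DNAJC3, HYOU1, SESN2 and PHGDH), against 16.7% of those genes. Only the longest annotated 3'-UTR of a gene was searched, and its median length was 949 bases in members and 1224 over all genes. Per kilobase, miR-23a-3p matches numbered 0.132 in members and 0.137 over all genes, and miR-27a-3p matches 0.0658 and 0.11. The sites in SESN2 and ASNS are printed because these genes carry results below (RNA strand written as DNA, capitals mark the seed match; GRCh38, GENCODE 29; SESN2 chr1:28282094-28282122, plus strand for miR-27a-3p and chr1:28281265-28281293, plus strand for miR-23a-3p, ASNS chr7:97852225-97852253, minus strand). A seed match describes the sequence and does not show regulation.
miR-23a-3p: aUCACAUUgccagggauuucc
miR-27a-3p: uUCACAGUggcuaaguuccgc
SESN2 miR-27a-3p site: tgtagcaaatgACTGTGAattacgacttc
SESN2 miR-23a-3p site: attcacccatcAATGTGAaagtcagggtc
ASNS miR-23a-3p site: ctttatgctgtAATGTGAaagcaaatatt

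Promoter windows of 300 bases (250 before and 50 after the start site, GRCh38.p14, RefSeq start sites) were available for 38 of 41 members, and PSPH, SHMT2 and PDIA3 had none. The ER stress element ERSE (CCAAT, 9 bases, CCACG), bound by ATF6 with NF-Y, occurs in 7 members (XBP1, HSPA5, HSP90B1, CRELD2, CALR, CANX and PDIA6) and in 0.0769% of 35116 windows. The shorter element ERSE-II (ATTGG, 1 base, CCACG) occurs in HYOU1, SDF2L1 and HERPUD1 and in 0.0541% of windows. The UPRE core, TGACGTGG, occurs in HYOU1, where it overlaps an ERSE-II, and in 0.729% of windows. The ATF4 element CARE (TGATGNAA) occurs in 7 members (ATF3, HERPUD1, PPP1R15B, CHAC1, ASNS, SLC3A2 and FGF21) and in 3.62% of windows. Elements of HSPA5, XBP1, HERPUD1, SDF2L1, ASNS and SLC3A2 are printed because these members are followed individually below (capitals mark the motif; HSPA5 ERSE chr9:125241361-125241439, minus strand; XBP1 ERSE chr22:28800573-28800651, minus strand; HERPUD1 ERSE-II chr16:56931995-56932065, plus strand; HERPUD1 CARE chr16:56931936-56932003, minus strand; SDF2L1 ERSE-II chr22:21642084-21642154, minus strand; ASNS CARE chr7:97872439-97872506, minus strand; SLC3A2 CARE chr11:62881706-62881748, minus strand). A match is a description of sequence, and the absence of a match says nothing about the factor.
HSPA5 ERSE: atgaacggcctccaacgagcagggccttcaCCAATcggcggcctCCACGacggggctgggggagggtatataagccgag
XBP1 ERSE: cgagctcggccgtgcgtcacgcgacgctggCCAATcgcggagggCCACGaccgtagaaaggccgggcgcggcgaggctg
HERPUD1 ERSE-II: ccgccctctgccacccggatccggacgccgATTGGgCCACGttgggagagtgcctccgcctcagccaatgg
HERPUD1 CARE: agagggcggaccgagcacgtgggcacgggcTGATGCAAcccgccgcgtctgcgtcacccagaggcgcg
SDF2L1 ERSE-II: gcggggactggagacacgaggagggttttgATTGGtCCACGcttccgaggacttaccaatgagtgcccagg
ASNS CARE: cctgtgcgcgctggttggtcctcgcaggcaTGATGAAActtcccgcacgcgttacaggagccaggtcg
SLC3A2 CARE: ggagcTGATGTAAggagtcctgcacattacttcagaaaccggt

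Library totals ran from 14405250 counts in Scr replicate 2 to 16515261 in miR-23a KO replicate 1, with 14891239, 15930779, 15850589 and 15947308 in Scr replicate 1, miR-23a KO replicate 2 and miR-27a KO replicates 1 and 2. Levels are counts scaled to a common library size with TMM factors over the 6 libraries (CPM), and levels of different genes are compared only after division by transcript length (TPM). The miR-23a KO libraries stand apart from each other: 18 of 40 members with enough counts were over 2-fold apart between them, against 46.8% of all genes. In Scr 4 of 40 members, ASNS, ATF3, CHAC1 and DDIT4, were over 2-fold apart (all genes 7.06%), each higher in replicate 1, and in miR-27a KO 0 of 40 (all genes 2.16%). Hepatocyte markers, 12 of 12 detected, summed to 35200 and 41200 CPM (Scr), 39200 and 37200 (miR-23a KO), 31200 and 31100 (miR-27a KO). That sum hides opposite moves in miR-27a KO against Scr: AFP (log2 fold change -4.11), ALB (-2.59) and FGB (-2.05) fell and TF (1.25) rose by the edgeR rule given below. Of the blood-cell markers LYZ carried nearly all counts, at 371 and 406 CPM (Scr), 128 and 187 (miR-23a KO), 1500 and 1560 (miR-27a KO), and rose in miR-27a KO, while HBA1 was lower (-2.92) without being called. The fibroblast marker PDGFRB measured 17.1 and 29.1 CPM (Scr), 29.9 and 20 (miR-23a KO), 5.63 and 5.11 (miR-27a KO), and fell in miR-27a KO (-2.12). COL1A1, the only other fibroblast marker matched, was at 0.137 CPM or less in every library and was not tested. COL1A2, COL3A1, DCN and LUM had no matching symbol. All libraries come from colonies of the HepG2 line, so LYZ, HBA1 and PDGFRB are read as RNA of these cells and not as numbers of blood cells or fibroblasts. In bulk RNA, a change in a share of the cells and a change in RNA per cell cannot be told apart.

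In the miR-23a KO pair, TRIB3, a pseudokinase that inhibits ATF4, was 6.99-fold higher in replicate 1 than in replicate 2, followed by the serine synthesis gene PHGDH (4.05-fold), the transcription factor ATF5 (3.83-fold) and the chaperone SDF2L1 (3.46-fold). The reverse held for the PERK gene EIF2AK3 (4.84-fold higher in replicate 2) and the ubiquitin ligase adaptor SEL1L (4.75-fold). Next came the phosphatase subunit PPP1R15B (3.66-fold), the chaperone DNAJC3 (3.23-fold), the degradation gene EDEM1 (2.89-fold) and the ER chaperone HSP90B1 (2.88-fold). Across 40 members the replicate difference followed transcript GC content with a Pearson r of 0.811, against 0.658 across 12851 genes, and log2 length with an r of -0.625, against -0.452. The plot of the replicate difference against GC content has GC-rich members such as TRIB3 at the replicate 1 end and GC-poor members such as SEL1L at the other. Whether GC content or something that goes with it makes the libraries differ was not tested. In the Scr pair r with GC content was 0.373 across members (0.395 across all genes), and in the miR-27a KO pair 0.205 (0.04). The member fold changes between miR-27a KO and Scr had an r of -0.396 with GC content, against -0.219 for all genes.

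**Figure D1:**
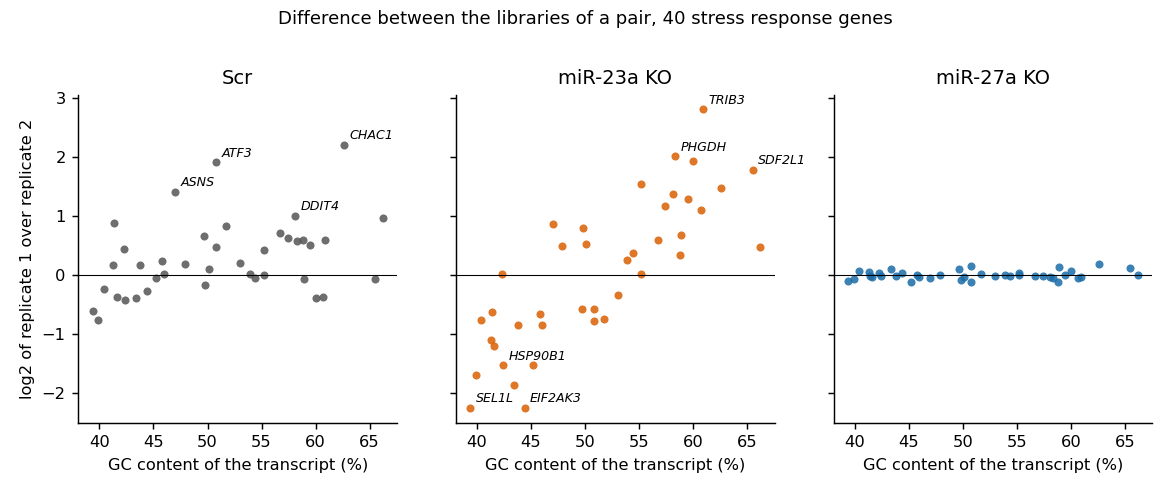
Log2 ratio of replicate 1 over replicate 2 against transcript GC content for the 40 members with enough counts, with a panel for each of the 3 groups.

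Per unit of transcript length, CALR, an ER lectin chaperone, was the most abundant member in Scr (2640 and 2800 TPM in replicates 1 and 2). By the mean of the Scr pair ATF4 followed (1090 and 712 TPM), then XBP1 (805 and 799) and the disulfide isomerase PDIA6 (630 and 569). In Scr replicate 2 XBP1 was above ATF4. The sensors ERN1 (4.03 and 3.08 TPM) and EIF2AK3 (5.03 and 6.48) were among the lowest, and the hepatokine FGF21 was lowest (0.799 and 0.12). FGF21 had 7 and 1 counts (Scr), 1 and 0 (miR-23a KO), 1 and 1 (miR-27a KO), too few to test. All members together made up 1.15% and 1.03% of Scr counts, 0.86% and 1.11% for miR-23a KO, 0.922% and 0.929% for miR-27a KO. PSPH, ATF4 and HSPA5 have close pseudogene copies, and how shared reads were assigned is not given in the sources used here.

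**Figure D2:**
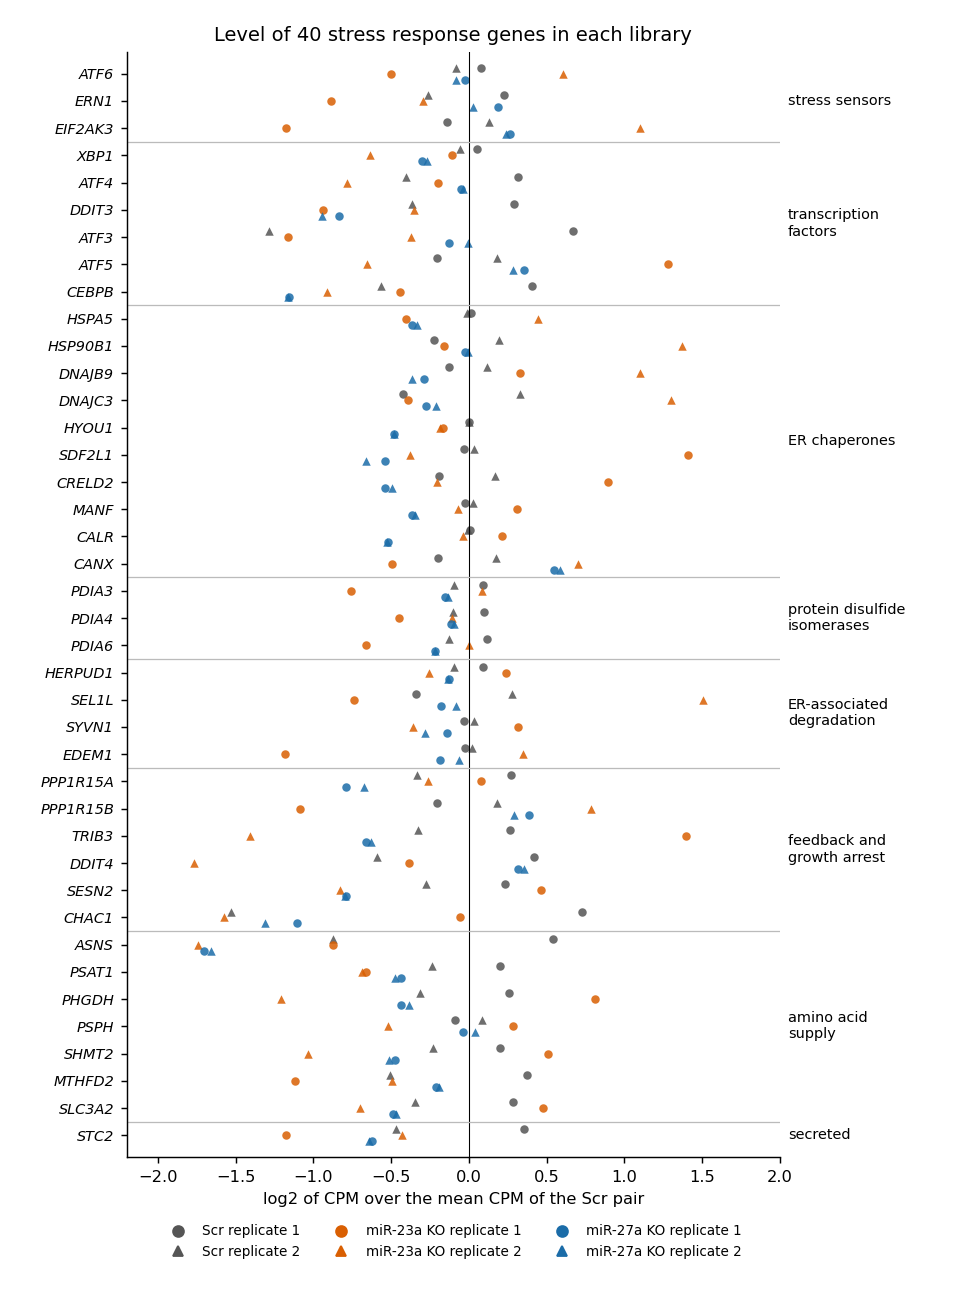
Level of each member in the 6 libraries, as log2 of CPM over the mean CPM of the Scr pair, for the 40 tested members grouped by role (circle: replicate 1, triangle: replicate 2).

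Between miR-27a KO and Scr, 2 of 40 tested members fell by the rule used here, a fold change over 1.5 with an adjusted p under 0.05 in the quasi-likelihood test of edgeR with Benjamini-Hochberg adjustment, against 6.74% of 13820 genes. These are SDF2L1 and SESN2, and 0 members rose, against 3.52% of genes. Without a fold limit, 6 members were lower at an adjusted p under 0.05, HYOU1, CALR, SDF2L1, HSPA5, MANF and SESN2, against 9.12% of genes, and 0 were higher, against 4.91%. At the study's stricter adjusted p under 0.001, 0 members were lower and 0 higher, against 0.0145% of genes in each direction, by edgeR. At an unadjusted p under 0.05, 16 members were lower (18.4% of genes) and 1, CANX, was higher (13.8%). DESeq2 called 6 members lower (7.60% of genes) and 0 higher (4.10%), and limma called 1 lower, SDF2L1 (6.61%), and 0 higher (3.61%). By sign alone 34 of 40 members were lower, and their median log2 fold change was -0.28, while 49.1% of all genes were lower, with a median of 0.01. With GC content and length corrected 29 of 40 members were lower (median -0.26), as were 29 of 40 without Scr replicate 1 (median -0.19). Both miR-27a KO libraries lay below both Scr libraries for 24 members (31.0% of genes) and above both for 4 (33.4%), EIF2AK3, ATF5, CANX and PPP1R15B. The plot of differences between miR-27a KO and Scr orders the members by fold change.

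**Figure D3:**
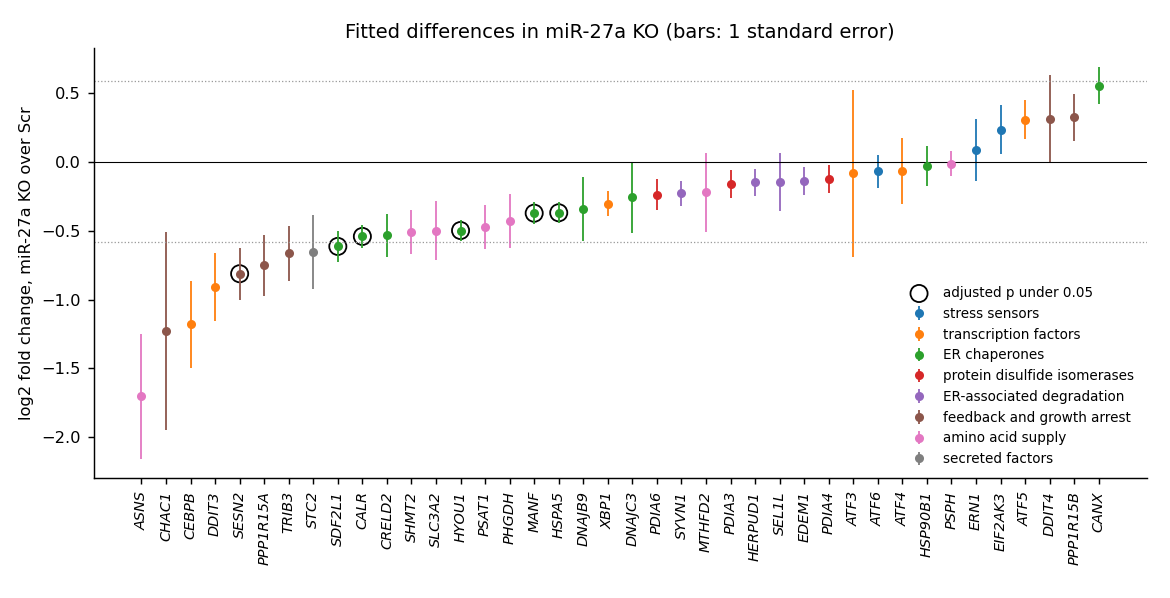
Log2 fold change of the 40 tested members in miR-27a KO against Scr, with bars of 1 standard error on each side, rings at an adjusted p under 0.05 by edgeR and dotted lines at 1.5-fold.

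The ER chaperones held 5 of the 6 members at an adjusted p under 0.05 by edgeR, so 5 of 10 chaperones, against 14% of all genes in either direction. Of 26 further ER folding genes 4 were at that threshold. SDF2L1, a cofactor of BiP, measured 39.2 and 41.1 CPM (Scr), 106.8 and 30.9 (miR-23a KO), 27.7 and 25.4 (miR-27a KO). It fell in miR-27a KO (log2 fold change -0.61, SE 0.114, adjusted p = 0.0302, edgeR), with both libraries below both Scr libraries and with the miR-23a KO libraries on either side of Scr. HYOU1, a nucleotide exchange factor of BiP, measured 446.6 and 445.6 CPM (Scr), 397.6 and 391.5 (miR-23a KO), 319.5 and 319.8 (miR-27a KO). It was lower in miR-27a KO (log2 fold change -0.50, SE 0.0758, adjusted p = 0.0197, edgeR) without passing 1.5-fold, and each group occupied its own range. CALR measured 2294 and 2269 CPM (Scr), 2645 and 2221 (miR-23a KO), 1588 and 1587 (miR-27a KO). Both miR-27a KO libraries were below the other 4 (log2 fold change -0.54, SE 0.0855, adjusted p = 0.0215, edgeR). HSPA5, which encodes BiP, the main ER chaperone, measured 314.2 and 308.8 CPM (Scr), 235.7 and 423.3 (miR-23a KO), 241.5 and 246.6 (miR-27a KO). It was lower in both miR-27a KO libraries than in both Scr libraries (log2 fold change -0.37, SE 0.0761, adjusted p = 0.0373, edgeR), and the miR-23a KO libraries spanned both groups. MANF, a secreted regulator of BiP, measured 84.7 and 87.9 CPM (Scr), 106.9 and 82.4 (miR-23a KO), 67.1 and 67.8 (miR-27a KO). Its miR-27a KO libraries were the lowest of the 6 (log2 fold change -0.37, SE 0.0817, adjusted p = 0.0427, edgeR). CRELD2 was also below Scr in both libraries (log2 fold change -0.53, SE 0.155, adjusted p = 0.0812, edgeR).

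SDF2L1 was no longer called when GC content and length were corrected (log2 fold change -0.39), without a filter on low counts (-0.60), in a fit of all 6 libraries (-0.61), or without miR-27a KO replicate 1 (-0.67) or replicate 2 (-0.54). Without Scr replicate 2 SDF2L1 was just short of 1.5-fold (-0.58). After the correction for GC content and length HYOU1 moved to -0.28, CALR to -0.30, CRELD2 to -0.22 and MANF to -0.13, while HSPA5 was at -0.45. In place of 6 members at an adjusted p under 0.05 at any fold, there were 2 after this correction (HSPA5 lower and CANX higher; 15.9% of genes), 2 without the filter (CALR and HYOU1 lower; 5.40%), 0 in the fit of all 6 libraries (0.452%) and 0 without miR-27a KO replicate 1 (2.96%) or replicate 2 (2.34%), all by edgeR. By the same measure DESeq2 had 12 members (16.3%), limma 6 (14.0%), and edgeR 27 without Scr replicate 1 (37.8%) and 31 without Scr replicate 2 (49.4%). The calnexin gene CANX went the other way from its relative CALR, at 358.8 and 463.5 CPM (Scr), 291.3 and 669.4 (miR-23a KO), 601.9 and 617.7 (miR-27a KO). CANX did not pass the adjusted threshold (log2 fold change 0.55, SE 0.133, adjusted p = 0.0532, edgeR), and its miR-27a KO libraries were above both Scr libraries and inside the miR-23a KO range. Without Scr replicate 2 CANX was at 0.74. HSP90B1, DNAJB9 and DNAJC3 had log2 fold changes of -0.03, -0.34 and -0.26 in miR-27a KO. The median over the 10 ER chaperones was -0.37, and 9 of 10 were lower. Without Scr replicate 2 HSP90B1 (0.19) and DNAJC3 (0.16) were higher, and 7 of 10 chaperones were lower.

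**Figure D4:**
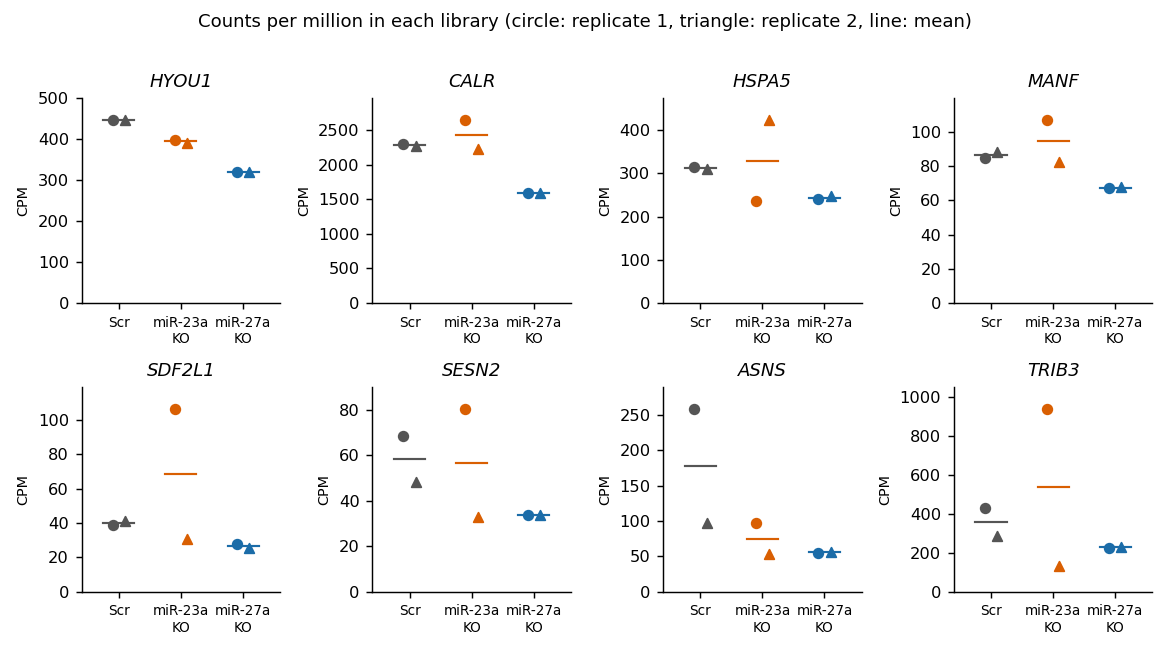
CPM of 8 members in the 6 libraries, with a circle for replicate 1, a triangle for replicate 2 and a line at the mean of the group.

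Of the sensors, ATF6, ERN1 and EIF2AK3 had log2 fold changes of -0.07, 0.09 and 0.23 in miR-27a KO, and none had an unadjusted p under 0.05. With a library left out, ATF6 ran from -0.15 to 0.03 and ERN1 from -0.14 to 0.36, so their signs depend on the libraries kept. XBP1 measured 679.5 and 630.1 CPM (Scr), 607.6 and 422.2 (miR-23a KO), 531.5 and 543.8 (miR-27a KO). Its miR-27a KO libraries were below both Scr libraries (log2 fold change -0.30, SE 0.0874, adjusted p = 0.0801, edgeR), inside the miR-23a KO range. ATF4 measured 1008 and 612.8 CPM (Scr), 706.7 and 469.7 (miR-23a KO), 781.6 and 789.3 (miR-27a KO). In miR-27a KO both values lay between the Scr libraries (log2 fold change -0.07, SE 0.238, adjusted p = 0.875, edgeR), so the sign depends on the Scr library kept: the log2 fold change was 0.35 without Scr replicate 1, and it was 0.24 with GC content and length corrected. DDIT3 (CHOP), a pro-apoptotic partner of ATF4, measured 35.1 and 22.2 CPM (Scr), 15 and 22.4 (miR-23a KO), 16.1 and 14.9 (miR-27a KO). Its miR-27a KO libraries were below Scr without passing the adjusted threshold (log2 fold change -0.91, SE 0.248, adjusted p = 0.0707, edgeR), although DESeq2 called it (-0.91). Without Scr replicate 2 the edgeR log2 fold change was -1.20. Without Scr replicate 1 DDIT3 was at -0.53 and not called. CEBPB, another partner of ATF4, measured 193.9 and 98.9 CPM (Scr), 107.7 and 77.8 (miR-23a KO), 65.7 and 65.3 (miR-27a KO). It was lower in both miR-27a KO libraries than in both Scr libraries (log2 fold change -1.18, SE 0.317, adjusted p = 0.0678, edgeR), with 1.96-fold between the Scr libraries. DESeq2 called CEBPB, and in edgeR CEBPB was at -0.60 without Scr replicate 1 and at -1.59 without replicate 2. With 1 Scr library left, the spread is estimated from the miR-27a KO pair alone, so a call in such a fit is not further evidence. ATF3, at 12 and 3.09 CPM in Scr, had its miR-27a KO libraries between the Scr values (-0.08), and was at 1.22 without Scr replicate 1 and at -0.75 without replicate 2. ATF5 was above Scr (0.30).

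The disulfide isomerases PDIA3, PDIA4 and PDIA6, which form and shuffle disulfide bonds in the ER, had log2 fold changes of -0.16, -0.12 and -0.24 in miR-27a KO. HERPUD1, an ER membrane component of the degradation complex whose promoter holds both an ERSE-II and a CARE, measured 122.1 and 107.2 CPM (Scr), 135.2 and 95.8 (miR-23a KO), 104.8 and 104.4 (miR-27a KO). Both miR-27a KO values were just below Scr (log2 fold change -0.15, SE 0.0991, adjusted p = 0.347, edgeR). The other degradation members, SEL1L, SYVN1 and EDEM1, had log2 fold changes of -0.15, -0.23 and -0.14, and SEL1L was at 0.19 without Scr replicate 2. With GC content and length corrected SYVN1 and PDIA4 turned positive, reaching at most 0.05 and 0.04 over the alternatives. A p-value above the threshold does not show that these genes were unchanged.

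SESN2, a stress-induced inhibitor of mTORC1 whose 3'-UTR holds a match to each seed, measured 68.5 and 48.4 CPM (Scr), 80.7 and 32.9 (miR-23a KO), 33.9 and 33.6 (miR-27a KO). It fell in miR-27a KO (log2 fold change -0.81, SE 0.187, adjusted p = 0.0479, edgeR), with both libraries below both Scr libraries. The call was lost with GC content and length corrected (log2 fold change -0.51), without a filter on low counts (-0.79), in a fit of all 6 libraries (-0.81) and in limma (-0.79). It was also lost without Scr replicate 1 (-0.52), without miR-27a KO replicate 1 (-0.81) and without replicate 2 (-0.80). TRIB3 measured 428.6 and 284.4 CPM (Scr), 938.5 and 134.3 (miR-23a KO), 225.6 and 230.4 (miR-27a KO). In miR-27a KO both values lay below Scr and inside the wide miR-23a KO range (log2 fold change -0.66, SE 0.202, adjusted p = 0.0900, edgeR). TRIB3 was called by DESeq2 (-0.67), and in edgeR it was at -0.93 without Scr replicate 2. It was at -0.32 without Scr replicate 1 and at -0.33 with GC content and length corrected, not called in either. PPP1R15A, which restores eIF2alpha activity, was below Scr (log2 fold change -0.75, SE 0.222, adjusted p = 0.0847, edgeR), while PPP1R15B was above it (0.32). DESeq2 called PPP1R15A, and without Scr replicate 1 it was at -0.40 and not called. Among the alternatives that kept all libraries, the weakest value of PPP1R15A was -0.42. CHAC1, which degrades glutathione, measured 13.8 and 2.89 CPM in Scr and 3.88 and 3.37 in miR-27a KO, where the low Scr library lay below both. DDIT4, another mTORC1 inhibitor, was at 110.5 and 113.6 CPM in miR-27a KO, inside the Scr range of 118.9 and 59.

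In miR-27a KO the fitted log2 fold changes of all 7 genes of amino acid supply were negative (median -0.48), and 0 of 7 were called lower by edgeR (6.74% of genes), with 3 at an unadjusted p under 0.05 (18.4%). DESeq2 called 0 of 7 amino acid supply members lower (7.60%) and limma 0 (6.61%). PSPH, at 160.6 and 180.6 CPM in Scr and 166.5 and 175.4 in miR-27a KO, was not clearly lower, and 6 of 7 were lower without a filter on low counts. Without Scr replicate 1 the median was -0.13 with 6 of 7 lower, and with GC content and length corrected -0.26 with 6 of 7 lower. ASNS, asparagine synthetase, with a CARE in its promoter, measured 259 and 97.4 CPM (Scr), 97 and 53.4 (miR-23a KO), 54.7 and 56.5 (miR-27a KO). It had the largest negative fold change of any member in miR-27a KO without passing the adjusted threshold (log2 fold change -1.70, SE 0.453, adjusted p = 0.0664, edgeR). Scr replicate 1 was 2.66-fold above replicate 2, and the log2 fold change of ASNS was -0.81 without replicate 1 and -2.24 without replicate 2. SLC3A2, the heavy chain of amino acid exchangers, measured 275 and 177.7 CPM (Scr), 314.3 and 139.3 (miR-23a KO), 161.5 and 163.3 (miR-27a KO). Its miR-27a KO libraries were below both Scr libraries (log2 fold change -0.50, SE 0.212, adjusted p = 0.175, edgeR), and the log2 fold change was -0.78 without Scr replicate 2. SLC3A2 was at -0.13 without Scr replicate 1 and at -0.19 with GC content and length corrected, not called in either. The serine and folate pathway genes PSAT1, PHGDH, SHMT2, MTHFD2 and PSPH had log2 fold changes of -0.48, -0.43, -0.51, -0.22 and -0.02. Without Scr replicate 1 MTHFD2 reversed to 0.30, and PSAT1 (-0.23), PHGDH (-0.10) and SHMT2 (-0.26) were nearer 0. Among the alternatives that kept all libraries, the weakest values were -0.25 for SHMT2 and -0.12 for PHGDH. STC2, a secreted glycoprotein induced by PERK, was below Scr in both libraries (log2 fold change -0.65, SE 0.271, adjusted p = 0.167, edgeR). Without Scr replicate 1 STC2 was at -0.17.

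By sign 26 of 40 members were higher in Scr replicate 1 and 14 in replicate 2, a difference that was not tested. Over all genes 6531 of 13411 were higher in replicate 1. ATF4, DDIT3, ATF3 and CEBPB were each higher in Scr replicate 1, while ATF5 (log2 ratio -0.39) and PPP1R15B (-0.38) were lower in it. CHAC1 was 4.78-fold, ATF3 3.88-fold, ASNS 2.66-fold and DDIT4 2.01-fold higher. Of 7 amino acid supply members 6 were higher in replicate 1, all but PSPH, with a median log2 ratio of 0.58. Of 18 further ATF4 targets, 17 were higher in Scr replicate 1 (median 0.49), against a median of -0.01 over all genes. The ER chaperones did not follow: 3 of 10 (HSPA5, CALR and HYOU1) were higher in replicate 1, with a median of -0.16. Without Scr replicate 1, edgeR called ASNS (-0.81), CEBPB (-0.60), SDF2L1 (-0.64) and CRELD2 (-0.69) lower and ATF3 (1.22) and DDIT4 (0.92) higher in miR-27a KO, 6 of 40 members against 16.0% of all genes. Without replicate 2 it called 14 members lower (ASNS -2.24, CHAC1 -1.95, CEBPB -1.59, DDIT3 -1.20, SESN2 -1.04, PPP1R15A -1.02, STC2 -1.01, TRIB3 -0.93, SLC3A2 -0.78, ATF3 -0.75, SHMT2 -0.72, PHGDH -0.69, PSAT1 -0.68 and MTHFD2 -0.60) and 1 higher, CANX (0.74), 15 of 40 against 26.0% of all genes. Values of ASNS, CEBPB, DDIT3, TRIB3 and SESN2 against Scr therefore rest on 2 control libraries that differ in these same genes.

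Between miR-23a KO and Scr, 0 of 40 members were called higher and 0 lower by edgeR, as were 0% of 13786 genes in each direction. At an unadjusted p under 0.05 edgeR had 0 members higher (0.856% of genes) and 0 lower (1.55%). By the calling rule DESeq2 called 0 members (0.457% of genes) and limma 0 (0% of genes). The biological coefficient of variation was 0.446, against 0.159 for miR-27a KO and Scr. DNAJB9, a BiP cofactor, was above Scr in both libraries (9.91% of genes), and 6 members, ERN1, XBP1, HYOU1, PDIA4, ASNS and PSAT1, were below (13.7%). By sign 19 members were higher and 21 lower, and the median log2 fold change was -0.04 (all genes 0.16). In limma the member median was -0.12 and that of all genes 0.06. The sign of the member median turned on the library left out: it was 0.10 with 22 of 40 higher without Scr replicate 1 (all genes 0.15), -0.33 with 12 higher without miR-23a KO replicate 1 (-0.05), and -0.31 with 15 higher without miR-23a KO replicate 2 (-0.08).

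ASNS, at 97 and 53.4 CPM in miR-23a KO, had the largest fold change against Scr (log2 fold change -1.23, SE 0.582, unadjusted p = 0.0670, edgeR). The higher miR-23a KO library was just below the lower Scr library, and ASNS was at -0.37 without Scr replicate 1 and at -1.77 without Scr replicate 2. XBP1 (log2 fold change -0.32, SE 0.462, unadjusted p = 0.503, edgeR), ATF4 (log2 fold change -0.44, SE 0.503, unadjusted p = 0.406, edgeR) and DDIT3 (log2 fold change -0.57, SE 0.524, unadjusted p = 0.306, edgeR) were lower. Without Scr replicate 1 ATF4 was at -0.06 and DDIT3 at -0.25, and without miR-23a KO replicate 2 XBP1 was at -0.13. HSPA5 (log2 fold change 0.13, SE 0.494, unadjusted p = 0.799, edgeR), SDF2L1 (log2 fold change 0.78, SE 0.595, unadjusted p = 0.226, edgeR) and TRIB3 (log2 fold change 0.58, SE 0.784, unadjusted p = 0.481, edgeR) were higher, each with miR-23a KO libraries on both sides of Scr. HERPUD1, SLC3A2 and SESN2 stood at 0.03, 0.01 and -0.03 (SE 0.431, 0.525 and 0.532). HSP90B1 and SEL1L, at 0.86 and 0.85, took their height from replicate 2 (666.6 and 111.7 CPM). Of the 10 ER chaperones 9 were higher, with a median of 0.37, and HYOU1 was lower, but 5 of 10 were higher with either miR-23a KO library left out (median 0.20 without replicate 1, 0.0049 without replicate 2).

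Leaving out a miR-23a KO library changed these results. Without replicate 1, edgeR called 3 members, SEL1L (log2 fold change 1.51) and HSP90B1 (1.37) higher and TRIB3 (-1.41) lower, against 4.12% of all genes. Without replicate 2 it called 9, with SDF2L1 (1.39), TRIB3 (1.37), ATF5 (1.26), CRELD2 (0.87) and PHGDH (0.78) higher, and EDEM1 (-1.20), STC2 (-1.20), MTHFD2 (-1.14) and PDIA3 (-0.78) lower, against 18.6% of all genes. TRIB3 was thus called in opposite directions depending on which library stayed. SDF2L1 turned to -0.38 without replicate 1, HSPA5 to -0.42 and SESN2 to 0.44 without replicate 2, and SLC3A2 to -0.70 and HERPUD1 to -0.26 without replicate 1. SESN2 was at 0.24 without Scr replicate 1, and SLC3A2 was at -0.27 and HERPUD1 at -0.06 without Scr replicate 2.

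Compared directly, miR-23a KO and miR-27a KO had 0 members called higher and 0 lower by edgeR, as were 0% of 13841 genes in each direction. At an unadjusted p under 0.05 edgeR had 0 members higher (4.66% of genes) and 0 lower (4.06%). By the calling rule DESeq2 called 0 members (3.45% of genes) and limma 0 (0.152% of genes). SDF2L1, called in miR-27a KO, was higher in miR-23a KO with a large error (log2 fold change 1.37, SE 0.657, adjusted p = 0.695, edgeR), as was SESN2 (log2 fold change 0.74, SE 0.520, adjusted p = 0.796, edgeR). The effects of the KOs on SDF2L1 and SESN2 are therefore not shown to differ. Both miR-23a KO libraries were above both miR-27a KO libraries for 8 members (19.7% of genes), CEBPB, DNAJB9, HYOU1, SDF2L1, CRELD2, MANF, CALR and PPP1R15A. They were below for 6 (19.9%), ERN1, ATF4, ATF3, DDIT4, PSAT1 and MTHFD2. DNAJB9 had the smallest adjusted p of any member (log2 fold change 1.08, SE 0.443, adjusted p = 0.613, edgeR). Without miR-23a KO replicate 1 12 of 40 members were called (34.2% of all genes), and without replicate 2 25 of 40 (51.4%), with 7 in common. Of these DNAJB9 was higher and DDIT4 lower each time, while SEL1L, EIF2AK3, ATF5, PHGDH and TRIB3 had opposite directions in the 2 fits.

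Members were also compared by the elements and sites printed above. The 10 members with an ERSE or ERSE-II, HSPA5 and HYOU1 among them, had a median log2 fold change of -0.34 in miR-27a KO, with 9 of 10 lower, all but CANX. The 6 tested members with a CARE, which include ASNS and HERPUD1, had a median of -0.32 with 5 of 6 lower, and the 25 members in which none was found, 3 of them without a window, a median of -0.23 with 21 of 25 lower. Among tested genes that are not members, 8 of 11 with an ERSE were lower (median -0.04), 7 of 12 with an ERSE-II (median -0.13) and 153 of 313 with a CARE (median 0.01). The 4 members with a miR-27a-3p seed match, DNAJC3, HYOU1, SESN2 and PHGDH, were all lower in miR-27a KO (median -0.47). The other 36 members had a median of -0.23, and all but 6 of them were lower. Over all genes the median in miR-27a KO was 0.07 with such a match and -0.01 without. Of the 7 members with a miR-23a-3p match, 3 were higher in miR-23a KO, ATF6, HSP90B1 and DNAJC3 (median -0.03, and -0.05 for other members). Over all genes the median with a miR-23a-3p match was 0.23, and 0.15 without, in miR-23a KO, and 0.14 against -0.02 in miR-27a KO.

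Related genes outside the 41 members place these values. In miR-27a KO against Scr, 26 further ER folding genes had a median log2 fold change of -0.25 with 23 lower, close to the -0.28 of the members; PRKCSH (-0.61) and FKBP7 (-0.98) fell, and UGGT1 (0.65), which like CANX and CALR serves glycoprotein folding, rose. Of 9 amino acid transporters 9 were lower (median -0.50), and SLC38A2 (-1.34) and SLC1A4 (-0.60) fell, but 7 of the 9 were also higher in Scr replicate 1 than in replicate 2 (median log2 ratio 0.37), like ASNS. SLC38A2, a transporter gene induced with ASNS by amino acid shortage, measured 130 and 140 CPM (Scr), 50.2 and 311 (miR-23a KO), 55.7 and 52.1 (miR-27a KO). Of 18 other ATF4 targets 15 were lower (median -0.42), and VLDLR (-3.41) and GADD45A (-1.08) fell. Among 14 aminoacyl-tRNA synthetase and export genes, a class that ATF4 also drives, WARS (-0.75) fell and LARS (0.64) rose. This class was split, with 8 genes lower, 6 higher and a median of -0.31. At an unadjusted p under 0.05, 6 were lower (18.4% of all genes) and 5 higher (13.8%). Among relatives of ATF6 and other stress factors, 15 genes with a median of -0.02, CREB3L3 (-1.39) and WFS1 (-0.74) fell.

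The lists nearest to HERPUD1 and SEL1L, 19 further ER-associated degradation genes, and to EIF2AK3 and ATF4, 14 genes of eIF2 kinases and eIF2B, had medians of 0.01 and 0.17 in miR-27a KO. By edgeR 0 genes of either list were called, against 6.74% of all genes lower and 3.52% higher, so few calls would be looked for in lists of this size. At an unadjusted p under 0.05 (18.4% of all genes lower, 13.8% higher) 2 degradation genes were lower and 0 higher, while of the eIF2 genes 6 were higher and 1 lower. By sign 10 of the 14 eIF2 genes were higher, the opposite of most members. Of 26 ER translocation and export genes (median -0.12) KDELR3 (-0.74), which retrieves KDEL proteins such as HSPA5, fell. The comparators in other compartments had medians nearer 0 than the ER chaperones: -0.07 over 17 cytosolic heat shock genes, with DNAJA1 (0.64) up and BAG3 (-0.76) down, and -0.06 over 11 mitochondrial chaperones and proteases, with LONP1 (-0.94) and CLPP (-0.68) down. By the calling rule 2 of the 11 mitochondrial genes were lower, against 1 of the 10 ER chaperones and 6.74% of all genes, so a fall was not particular to the ER. In miR-23a KO against Scr or against miR-27a KO, edgeR called 0 genes of any of these lists. At an unadjusted p under 0.05, 2 cytosolic heat shock genes were higher in miR-23a KO than in Scr (0.856% of all genes). Against miR-27a KO (4.66%) 1 gene was higher in each of 4 lists, ER folding, other ATF4 targets, relatives of ATF6 and other stress factors, and cytosolic heat shock.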

How the data were processed

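RNA was sequenced from 6 HepG2 libraries in 3 groups of 2. The deposited values are expected counts per gene that the authors computed before deposit, although the columns are named FPKM; the submitters' processing notes name HISAT, StringTie, Cufflinks and GATK without versions, and the build and counter are not given in the sources used here. Counts were rounded, filtered with filterByExpr and TMM-scaled, and each pair of groups was fitted in edgeR 4.0.16 (R 4.3.3) with the quasi-likelihood test, with Benjamini-Hochberg adjustment over all genes tested. Library totals were 14405250 to 16515261 counts, which leaves members under about 10 CPM imprecise. Members are 41 symbols matched in the table, and the members and lists were chosen with earlier results of these data known. Members named with full values were those called plus HSPA5, XBP1, ATF4, DDIT3, HERPUD1, TRIB3, ASNS and SLC3A2, and up to 2 called genes per direction of each list; HYOU1, CALR, MANF, CANX and CEBPB were singled out beyond this rule. Alternatives were DESeq2 1.42.0, limma 3.58.1, median-ratio scaling, no filter, a fit of all 6 libraries, a replicate block, a loess offset for GC content and length from GENCODE 29, and each library left out. The code was tested on simulated data. Promoters are from RefSeq annotation of GRCh38.p14. C-terminal retention signals were not counted because no protein sequences were given.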

Additional observations from a re-analysis of the deposited data

Results flagged for a closer look

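DNAJB9, a BiP cofactor, was picked out because both miR-23a KO libraries were above both Scr libraries and both miR-27a KO libraries were below them. It measured 5.95 and 7.05 CPM (Scr), 8.18 and 13.9 (miR-23a KO), 5.33 and 5.05 (miR-27a KO), a log2 fold change of 1.08 between the knockouts (SE 0.443, adjusted p = 0.613, edgeR). The direct test of the difference did not pass, and the miR-23a KO libraries were 1.70-fold apart.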

How the results depend on the processing

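Each lone library in a leave-one-out fit is assumed to vary like the other group, and the cause of each change below was not tested. FGF21 had too few counts for a test. In miR-27a KO against Scr, 2 members and 1418 genes were called by edgeR. Median-ratio scaling changed none of the counts; DESeq2 gave 6 and 1616, limma 1 and 1413, no filter 0 and 892, the fit of all 6 libraries 0 and 64, and GC content and length correction 0 and 1458. Leaving out a library gave 0 to 15 members and 334 to 3716 genes. In miR-23a KO against Scr, edgeR called 0 members and 0 genes, DESeq2 0 and 63, limma 0 and 0, no filter 0 and 10, the fit of all 6 libraries 0 and 3, GC content and length correction 0 and 9, and leaving out a library 0 to 9 and 4 to 2630. Between the knockouts the counts were 0 and 0 by edgeR, 0 and 477 by DESeq2, 0 and 21 by limma, 0 and 0 without the filter, 0 and 218 in the fit of all 6 libraries, 0 and 308 after the correction, and 0 to 25 and 72 to 7303 with a library left out.

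The replicate numbers share only a number: across 13556 genes the replicate differences of Scr and miR-23a KO correlated at 0.181, Scr and miR-27a KO at -0.003, and the knockouts at 0.0162. A replicate block gave 7 members (ASNS, CEBPB, DDIT3, PPP1R15A, TRIB3, SDF2L1 and SESN2) and 1693 genes (12.3%) in miR-27a KO against Scr, 0 and 69 in miR-23a KO against Scr, and 0 and 400 between the knockouts. In miR-27a KO the block put 11 of 40 members at an adjusted p under 0.05 at any fold, against 16.2% of genes, by edgeR. The replicate block with the GC content and length correction gave 6 (ASNS, CEBPB, DDIT3 and PSAT1 lower, ATF5 and DDIT4 higher; SDF2L1 at -0.38 and SESN2 at -0.50 not called) and 1753, 0 and 58, and 1 (DDIT4) and 663. With the replicate block SLC3A2 was at -0.0474 in miR-23a KO against Scr, and ATF4 at 0.27 in miR-27a KO with the correction added.

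Of the log2 fold changes of the 10 individually described members, 62 of their values under alternatives kept direction and side of the threshold in miR-27a KO, 7 were stronger, 9 weaker and 2 reversed; in miR-23a KO 75 kept and 5 reversed. Among values with a library left out, 28 kept, 5 were stronger, 6 weaker and 1 reversed in miR-27a KO, and 29 kept, 2 were stronger and 9 reversed in miR-23a KO. Besides SLC3A2 and ATF4 with the replicate block above, the reversed values against Scr were in miR-23a KO HERPUD1 -0.0214 and SLC3A2 -0.0281 in the fit of all 6 libraries, SLC3A2 -0.0037 after GC content and length correction and -0.0475 in limma, SESN2 0.24 without Scr replicate 1, HERPUD1 -0.06 and SLC3A2 -0.27 without Scr replicate 2, HERPUD1 -0.26, TRIB3 -1.41, SLC3A2 -0.70 and SDF2L1 -0.38 without miR-23a KO replicate 1, and HSPA5 -0.42 and SESN2 0.44 without replicate 2. In miR-27a KO they were ATF4 0.24 after the correction and 0.35 without Scr replicate 1. In miR-23a KO against Scr, over the leave-one-out fits the ranges were -0.26 to 0.22 for HERPUD1, -1.41 to 1.37 for TRIB3, -0.70 to 0.45 for SLC3A2, -0.38 to 1.39 for SDF2L1, -0.83 to 0.44 for SESN2, -0.42 to 0.44 for HSPA5, -1.77 to -0.37 for ASNS, -0.79 to -0.06 for ATF4, -0.96 to -0.25 for DDIT3 and -0.63 to -0.13 for XBP1.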
